A study of Mus musculus with 10 samples.

Results

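Of the 40620 genes in the count table of MC3T3-E1 cultures, 10 are genes usually studied in blood cells: Sash3, Tyrobp, Hcst, Lyz2, Lyz1, Csf1r, Cd14, Cd68, Cd74 and Laptm5. They were chosen by name, and Sash3 and Tyrobp were selected on their own values, Sash3 because its reads appear at 24 h and Tyrobp because it differs between replicates. Those values are therefore given as a description and were not tested. All 10 genes were found by Ensembl identifier in both the count table and the RPKM table, and all 10 passed the filter on low counts. MC3T3-E1 is a pre-osteoblast line from mouse calvaria, here its subclone 4, so every sample comes from a single clonal line. RNA was sequenced as 51 bp paired reads from subconfluent cells, from confluent cells (day 0), and after 24 h, 14 d and 21 d in osteogenic medium, in 2 libraries per stage that carry the letters A and B. The growth medium was αMEM with 10% serum in all groups, and in the osteogenic medium ascorbic acid was at 50 µg/ml and β-glycerophosphate at 10 mM. No label says whether replicates were separate cultures, so p-values measure only the spread between these samples, which may be technical.

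Myeloid cells sense their surroundings through membrane receptors. Many of those receptors have no signalling tail and borrow one from the adaptors DAP12 (Tyrobp) or DAP10 (Hcst), which pass the signal to SYK-type kinases or to PI 3-kinase. CSF1R binds CSF1 and IL-34 and keeps macrophages and osteoclast precursors alive, CD14 hands lipopolysaccharide to TLR4, and CD74 is both the invariant chain of MHC class II and a receptor for MIF. In bone, osteoblasts make CSF1, whereas cells that carry CSF1R in quantity are of the osteoclast and macrophage lineage. Osteoclast precursors depend on DAP12 for full maturation. SASH3 is an adaptor of lymphocytes, LAPTM5 and CD68 are lysosomal membrane proteins of blood cells, and lysozyme (Lyz1, Lyz2) is a secreted enzyme of macrophages that attacks bacterial walls.

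The libraries held 44736156 to 162939333 counts on genes, and 3 counts, the limit that a count of 0 allows, corresponded to 0.0184 to 0.0671 CPM (counts scaled to the library total). Such limits and the intervals on counts below cover counting error only. The 2 libraries of 24 h stood apart: the chi-square of A against B over all genes, divided by its degrees of freedom, came to 479.8 there and to 30.4 to 60.9 elsewhere. The column names show 1 pair of index sequences in the subconfluent, confluent and 24 h libraries and another in those of 14 d and 21 d. A difference between these sets of stages cannot be told apart from a difference between sets of libraries.

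Promoters of the genes that the results turn on are shown first, because Sash3 is the gene that switched on, Hcst stands for the Tyrobp pair, and Lyz1 and Lyz2 are near copies. Each is the 250 bases before the RefSeq start on GRCm38.p6, 5′ to 3′ on the strand of the gene. Capitals mark GAGGAA or its reverse complement TTCCTC, a form of the ETS core that PU.1 binds. They also mark TGTGGT or its reverse complement ACCACA, the core that RUNX factors bind. The shorter ETS letters GGAA, which also occur in these windows, were not searched and are not marked.
Sash3, chrX:48146186-48146435, plus strand: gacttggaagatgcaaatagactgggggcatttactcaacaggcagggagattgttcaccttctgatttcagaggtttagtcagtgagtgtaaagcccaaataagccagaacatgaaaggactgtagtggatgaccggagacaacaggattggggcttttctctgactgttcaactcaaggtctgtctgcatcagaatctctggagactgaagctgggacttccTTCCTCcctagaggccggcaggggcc
Hcst, chr7:30419855-30420104, minus strand: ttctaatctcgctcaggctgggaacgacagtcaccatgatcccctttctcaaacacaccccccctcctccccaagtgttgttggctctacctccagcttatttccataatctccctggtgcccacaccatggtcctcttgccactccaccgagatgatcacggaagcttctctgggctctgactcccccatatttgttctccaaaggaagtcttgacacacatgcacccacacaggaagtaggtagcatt
Lyz2, chr10:117282273-117282522, minus strand: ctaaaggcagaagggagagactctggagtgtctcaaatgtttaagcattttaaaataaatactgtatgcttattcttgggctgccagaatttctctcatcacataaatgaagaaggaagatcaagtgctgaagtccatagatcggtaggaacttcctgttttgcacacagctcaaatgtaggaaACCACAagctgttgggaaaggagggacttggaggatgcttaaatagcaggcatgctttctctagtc
Lyz1, chr10:117292869-117293118, minus strand: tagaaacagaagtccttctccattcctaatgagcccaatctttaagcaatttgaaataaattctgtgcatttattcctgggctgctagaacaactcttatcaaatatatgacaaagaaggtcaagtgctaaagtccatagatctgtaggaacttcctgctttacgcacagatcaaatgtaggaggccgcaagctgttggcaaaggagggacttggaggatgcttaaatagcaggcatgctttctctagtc

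The GAGGAA letters were found in the promoters of Sash3, Cd68 and Laptm5 and the RUNX core in that of Lyz2. By the gene positions given below, 2 of these windows reach into the gene. The Laptm5 window, chr4:130913066-130913315, runs past the gene start at 130913125. The Lyz2 window begins at 117282273, within the gene, which ends at 117282321. Over all 32851 RefSeq promoters of this length, 23.3% hold the GAGGAA letters and 14.0% the RUNX letters on either strand. A match of letters describes the window and is not a binding site. The Lyz1 and Lyz2 promoters are identical at 200 of 250 aligned bases (80.0%), and the RUNX letters in Lyz2 are not in the Lyz1 window. Promoter entries were matched for 6 of the 10 genes. Entries on chromosome 18, where Csf1r, Cd14 and Cd74 lie, were not used, so the letters were not looked for in those genes or in Tyrobp.

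Sash3 (ENSMUSG00000031101, chrX:48146436-48161565, plus strand) was almost silent before osteogenic medium and present in each library after it. Its counts were 2 and 0 in subconfluent cells A and B and 0 and 1 in confluent cells. They were 388 and 490 at 24 h, 1733 and 539 at 14 d, and 588 and 1852 at 21 d. Scaled for gene length and depth, the level was 0.00728 and 0 RPKM in subconfluent and 0 and 0.00347 RPKM in confluent cells, 1.71 and 2.32 RPKM at 24 h, 7.21 and 6.12 RPKM at 14 d, and 6.29 and 8.67 RPKM at 21 d. The 4 earlier libraries lie at the floor, both 24 h libraries lie above them, and the 14 d and 21 d libraries lie above those of 24 h and overlap each other. Stage means were 2.02 ± 0.434 RPKM at 24 h, 6.67 ± 0.774 at 14 d and 7.48 ± 1.68 at 21 d (SD, n = 2 each).

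With the replicates of a stage added together, Sash3 stood at 3.48 CPM at 24 h against 0.0047 CPM in confluent cells, which rests on 1 count. The ratio was 740.9, and 337.4 against the 2 counts of subconfluent cells, with exact 95% counting intervals of 132.6 to 29295 and 93.1 to 2790. These intervals cover counting error and are no test, since Sash3 was selected on this step. The 24 h and confluent libraries shared an index pair, unlike those of 24 h and 14 d. A shared pair does not show that libraries were prepared or run together. By the column names, confluent A and 24 h A carry the same index and the same lane number. The labels name no run. Whether these stages were also prepared or run apart is not known, and such a difference cannot be told apart from one between stages. In the whole count table, Sash3 was the only gene with at most 3 counts in all 4 libraries before 24 h and at least 300 counts in all 6 from 24 h on, a pair of limits set after its values were seen. At 14 d A and 21 d B, which were sequenced in 2 lanes each, the lanes gave 1159 and 541 Sash3 counts and 1558 and 283 counts.

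The nearest gene upstream of Sash3 on the same strand is Xpnpep2, a membrane aminopeptidase, 9455 bp away. Its level was 0.0133 to 0.0382 RPKM before 24 h, 0.0873 and 0.136 RPKM at 24 h, 0.769 and 0.637 RPKM at 14 d, and 1.41 and 1.63 RPKM at 21 d. Xpnpep2 was thus also lowest before 24 h and highest at 21 d, but the Sash3 level was 19.6 and 17.1 times its own in the 24 h libraries and 4.46 and 5.32 times at 21 d. The nearest gene on the other side, Zdhhc9, a palmitoyltransferase on the minus strand 10404 bp away, had 1680 to 5992 counts in all 10 libraries. Over the 10 libraries the log2 CPM of Sash3 was most like that of Tsc22d3, a glucocorticoid-induced leucine zipper protein, at Pearson's r = 0.994, and of Ece2, an endothelin-converting enzyme, at r = 0.993, out of 15106 genes. These correlations share library, depth and stage and are a description only.

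Of 6 relatives and partners of SASH3 in lymphocytes, Samsn1, its closest relative, was at 0 in all libraries, and Cd28 and Lcp2 had 8 and 3 counts in all 10 libraries together. Sash1, the widely expressed relative, was at 5.78 to 14.8 RPKM. The kinases Zap70 and Lck were low, at up to 1.33 and 0.387 RPKM. Both were called higher at 21 d than in subconfluent cells, 2 of the 3 genes tested, where 27.6% of all genes were called. Their log2 fold changes were 5.90 ± 0.51 and 2.09 ± 0.32 (± SE, edgeR adjusted p = 7.9e-05 and 0.0013). Sash1 was not called in that comparison. Zap70, at 1 to 324 counts per library, passed the filter only through its higher libraries, so its call is a description.

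**Figure D1:**
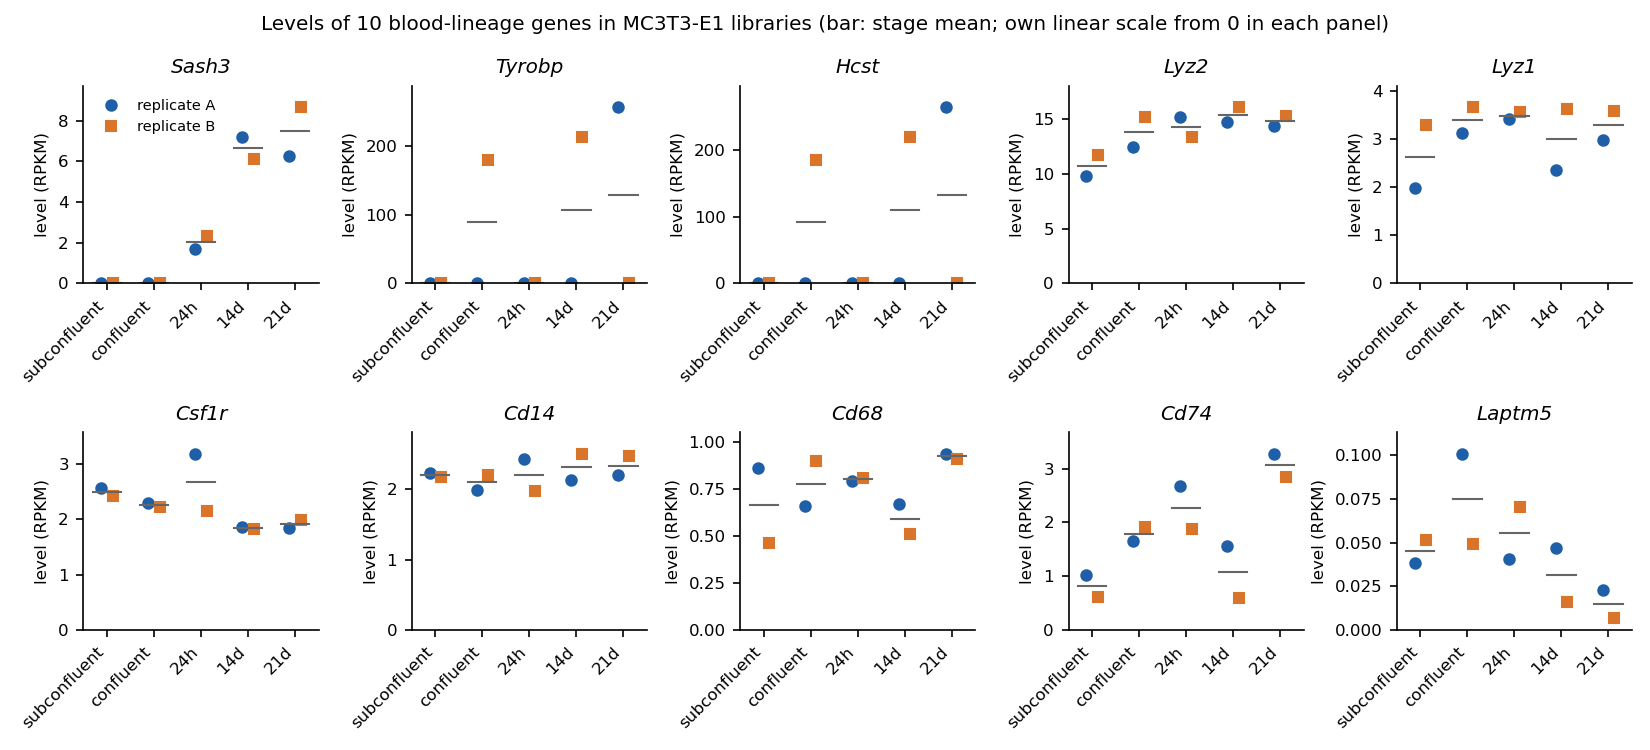
Level of each of the 10 genes in RPKM (linear axis from 0, a scale of its own in each panel) in the 10 libraries by stage, with circles for replicate A, squares for replicate B and a bar for the mean of 2. Sash3 rises from the floor to 1.71 and 2.32 RPKM at 24 h, Tyrobp and Hcst are high in 1 library of a stage at confluence, 14 d and 21 d, and Lyz2 stays between 9.81 and 16.1 RPKM.

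Tyrobp (ENSMUSG00000030579, chr7:30413760-30417585, plus strand) was either among the stronger genes or near 0, and at confluence, 14 d and 21 d the replicates fell on opposite sides, while both were at or near 0 in subconfluent cells and at 24 h. Its counts were 0 and 0 in subconfluent cells, 0 and 10810 in confluent cells, 40 and 0 at 24 h, 25 and 3940 at 14 d, and 5015 and 12 at 21 d. The high libraries, confluent B, 14 d B and 21 d A, held 179.1, 213.6 and 256.3 RPKM, and the other 7 held at most 0.842 RPKM. The high library was B at confluence and 14 d and A at 21 d, so neither stage nor replicate letter separates high from low. A stage mean such as 128.3 ± 181.1 RPKM at 21 d (SD, n = 2) describes neither library.

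Hcst (ENSMUSG00000064109, chr7:30417712-30419854, minus strand) lies tail to tail with Tyrobp, with a gap of 126 bp. Its counts were 0 and 0, 0 and 8648, 32 and 0, 20 and 3152, and 4012 and 0 for A and B from subconfluent to 21 d. The same 3 libraries were high, at 184.9, 220.6 and 264.7 RPKM. In the 5 libraries where both genes had reads, Tyrobp counts divided by Hcst counts gave 1.25 each time. Hcst was fitted with the 7 other genes tested and was called in none of the 5 comparisons by edgeR. As its counts follow those of Tyrobp, this says nothing about its stages, and its fitted fold changes, which rest on stages at 0, are not given.

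The steady ratio extended to the neighbours. The 7 adjacent genes Tyrobp, Hcst, Nfkbid, Aplp1, Kirrel2, Nphs1 and Nphs1os span 73.5 kb (chr7:30413760-30487223), and in those 5 libraries their counts were whole multiples of 1 number per library. This unit was 2162 counts in confluent B, 8 in 24 h A, 5 in 14 d A, 788 in 14 d B and 1003 in 21 d A. Tyrobp held 5 units, Hcst 4, Nfkbid 12, Aplp1 17, Kirrel2 15, Nphs1 26 and Nphs1os 2. The division left a remainder of 0 in 6 of the genes and at most 2 counts in Nphs1. For 5 of the 7 genes, all but Nphs1 and Nphs1os, GENCODE lists a transcript with exactly as many exons as the gene held units. The 21 d B library did not follow as a whole, with 12 counts in Tyrobp and 0 in Hcst. Its other counts were 28 in Nfkbid, 28 in Aplp1, 60 in Kirrel2, 83 in Nphs1 and 8 in Nphs1os.

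These genes have little in common beyond their place. Nfkbid is an atypical IκB protein, Aplp1 a relative of the amyloid precursor, Kirrel2 and Nphs1 (nephrin) adhesion proteins of the kidney filter, and Nphs1os an antisense transcript. Aplp1, Kirrel2, Nphs1 and Nphs1os were named after their values were seen. Exactly 7 genes of the whole table had at least 100 counts in confluent B, 14 d B and 21 d A and at most 3 counts in subconfluent A, subconfluent B, confluent A and 24 h B, and all 7 are this run. These limits were read from the split of Tyrobp itself, after its values were seen, so the count is a description. The run took 0.107%, 0.131% and 0.156% of all counts in the 3 high libraries. The nearest gene before Tyrobp, Lrfn3, had 30 to 159 counts in all 10 libraries and no such split. Prodh2, beyond Nphs1, had at most 6 counts in any library. Farther off, Wdr62, a protein of spindle poles also named after its values were seen, had 19389 counts in confluent B and 6477 in 14 d B but 124 in 21 d A, and 309 to 3063 in the other 7 libraries.

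**Figure D2:**
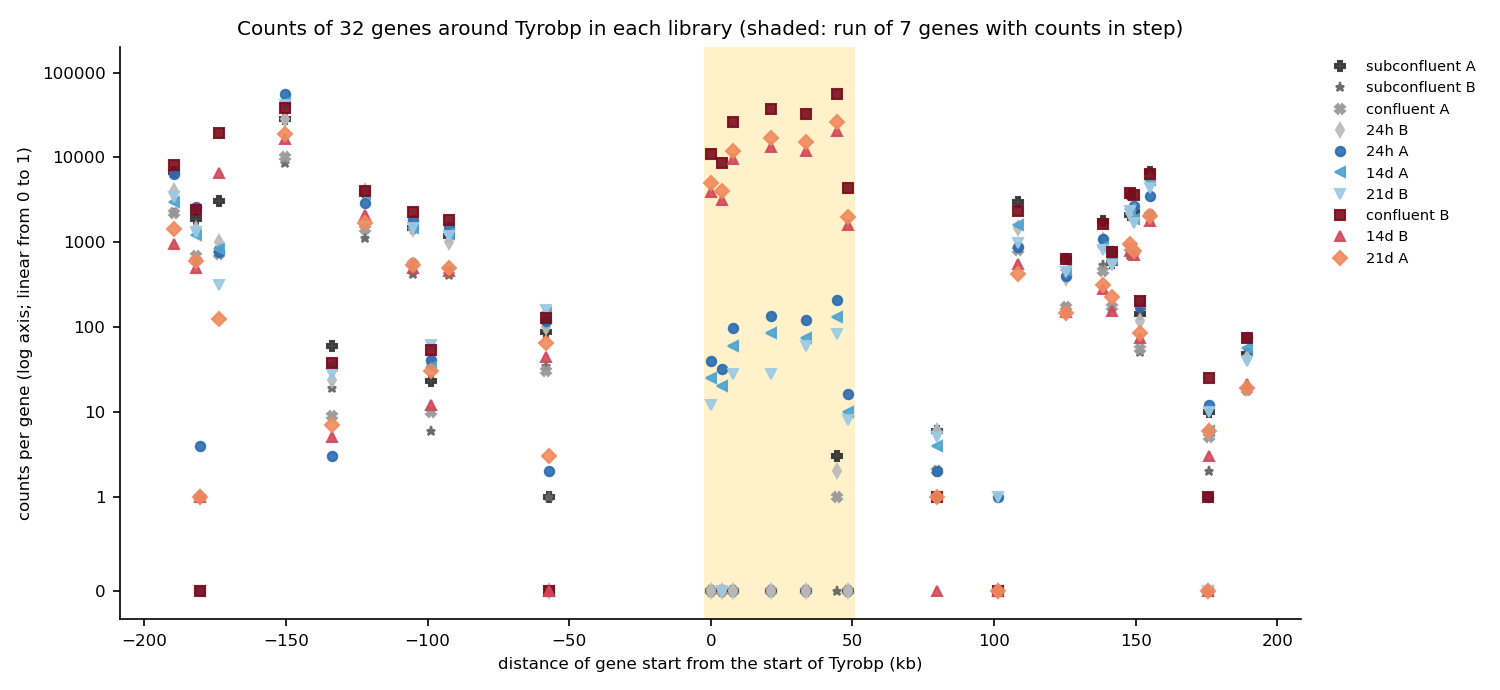
Counts per gene (log axis, linear from 0 to 1) of 32 genes within 200 kb of the pair, against the distance of each gene's start from that of Tyrobp, with 1 symbol per library. In the shaded run of 7 genes the libraries split into levels, with Tyrobp at 10810, 5015 and 3940 counts in the 3 high libraries and at 0 in 4. The genes on either side do not split this way. Wdr62, left of the run, is high in confluent B and 14 d B but not in 21 d A.

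**Figure D3:**
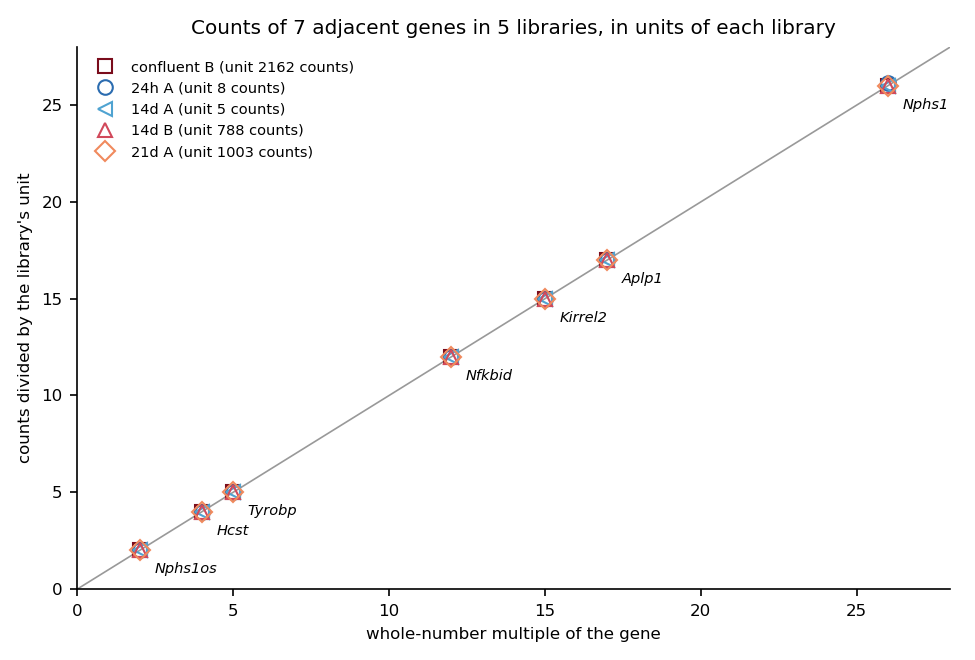
Counts of the 7 adjacent genes divided by the unit of each library, against the whole-number multiple of the gene, for the 5 libraries with a unit. All points lie on the line of equality, from Nphs1os at 2 to Nphs1 at 26, whether the unit is 5 counts or 2162.

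The 2 lanes of 14 d A both had 0 counts on Tyrobp and Hcst, whereas the merged column used here had 25 and 20. The lanes of 21 d B also had 0 on Tyrobp and the merged column 12. The merged count differs from the sum of the lanes for 13526 and 13582 genes of the table in these libraries, and how the columns were merged is not given in the sources used here. Genes at 0 in 1 replicate and at 100 counts or more in the other numbered 38 to 68 per stage, of which up to 6 belonged to the run. What set the run apart between libraries was not tested.

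Receptors that need DAP12 or DAP10 were low or at 0. Of 12 receptors and kinases of this pathway, Klrk1 (NKG2D) and Sirpb1a were at 0 in all libraries, Trem1, Clec5a, Trem3 and Vav1 had 1 to 7 counts in total, Trem2 reached 0.233 RPKM, and Cd300lb reached 1.16 RPKM with reads in all 10 libraries. The downstream enzymes Plcg2 and Syk were present at 0.0228 to 6.74 and 0.218 to 3.49 RPKM. Of the 12 genes, 6 could be tested. At 21 d against subconfluent cells Cd300lb, Plcg2, Trem2 and Zap70 were called higher and Syk lower, where 27.6% of all genes were called. Trem2 and Zap70, at 2 to 61 and 1 to 324 counts per library, passed the filter only through their higher libraries. The log2 fold change was 6.34 ± 0.47 for Plcg2 and -3.87 ± 0.22 for Syk (± SE, edgeR adjusted p = 4e-05 and 1.5e-05). The summed RPKM of the 12 genes was 2.88 to 8.99 and highest in both 14 d libraries, of which 1 was high and 1 low in Tyrobp.

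The other 8 genes were tested on counts with edgeR's quasi-likelihood test over all 10 libraries. A call needed both an adjusted p below 0.05 and a change above 2-fold. Hcst is 1 of the 8, but its counts follow those of Tyrobp, so only the 7 others bear on the stages. Over the 5 stages together, 2 of the 8 passed, Lyz2 (adjusted p = 0.042) and Cd74 (adjusted p = 0.045), where 48.9% of the 20808 genes tested did. This count was 0 without subconfluent A, subconfluent B, confluent A, 21 d A or 21 d B, 1 without confluent B, 14 d A or 14 d B, and 3 without 24 h B. The share over all genes moved with it, from 33.2% to 39.4% without any 1 of those first 8 libraries to 72.9% without 24 h B. Between 21 d and subconfluent cells, 1 of the 8 was called, Cd74, against 27.6% of all genes. Without the 3 libraries of high Tyrobp, a choice made after seeing the data, neither passed over the 5 stages and Cd74 was not called at 21 d (log2 fold change 1.90, adjusted p = 0.07, with 1 library left in 3 of the stages). With those 7 libraries the share of all genes fell as well, to 4.39% over the 5 stages and to 15.7% at 21 d. The median log2 fold change of the 8 at 21 d against subconfluent cells was 0.51, or 0.45 over the 7 without Hcst, beside 0.04 over all genes.

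In each of the other 4 comparisons edgeR called 0 of the 8 genes, and 14 d was compared with confluent cells and not with 24 h. The shares of all genes called were 1.43% for confluent against subconfluent cells, 2.13% for 24 h against confluent, 13.0% for 14 d against confluent and 3.97% for 21 d against 14 d. At an unadjusted p under 0.05 the counts were 0, 0, 1 (Lyz2) and 1 (Cd74), and no share of all genes was taken at that limit. DESeq2 called 1 (Hcst), 0, 0 and 1 (Cd74), and limma on log2(RPKM + 1) called 0 in all 4. Of all genes, DESeq2 called 2.45%, 3.73%, 12.1% and 5.09%, and limma 0.371%, 0.529%, 4.43% and 1.74%. Both Hcst calls of DESeq2, at confluence and at 21 d against subconfluent cells, rest on 1 library of a stage.

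Lyz2 (ENSMUSG00000069516, chr10:117277331-117282321), the lysozyme of macrophages, was the best expressed of the 8 outside the Tyrobp run. It stood at 9.81 and 11.7 RPKM in subconfluent cells, 12.5 and 15.2 RPKM at confluence, 15.2 and 13.4 RPKM at 24 h, 14.7 and 16.1 RPKM at 14 d, and 14.4 and 15.3 RPKM at 21 d. Both subconfluent libraries are the lowest, and the other stages overlap one another. At 21 d against subconfluent cells the log2 fold change was 0.59 ± 0.16 (± SE, adjusted p = 0.017), past the adjusted p but under 2-fold, where 50.7% of all genes passed that p at any fold. Its closest patterns over the 10 libraries were those of Gm5259 (r = 0.981) and Gm7393 (r = 0.979).

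Lyz1 (ENSMUSG00000069515, chr10:117287797-117292868), the lysozyme of Paneth cells, lies 5476 bp from Lyz2. It ran from 1.98 RPKM in subconfluent A to 3.66 RPKM in confluent B, with stage means of 2.63 to 3.48 RPKM, and the stages overlapped except that both subconfluent libraries lay below both of 24 h. Lyz2 was 3.56 to 6.22 times Lyz1 in RPKM. The transcripts are identical at 92.0% of bases, and 187 of the 1266 windows of 51 bases in Lyz2 (14.8%) also occur in Lyz1. A single read from those windows cannot be assigned to 1 of these genes. Reads were paired, and what the second read of a pair adds was not looked at. The log2 fold change of Lyz1 at 21 d against subconfluent cells was 0.45, with a 95% interval of -0.26 to 1.15. It was 0.10 without subconfluent A and 0.81 without subconfluent B.

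Csf1r (ENSMUSG00000024621, chr18:61100598-61132149), the receptor for CSF1, had 320 to 1440 counts per library. Its level was 2.56 and 2.42 RPKM in subconfluent cells, 2.29 and 2.23 RPKM at confluence, 3.19 and 2.16 RPKM at 24 h, 1.86 and 1.83 RPKM at 14 d, and 1.84 and 1.99 RPKM at 21 d. In RPKM the 14 d and 21 d libraries lie below all others, and 24 h A is the highest. After TMM scaling the log2 fold change at 21 d against subconfluent cells was -0.26 (95% interval -0.73 to 0.21, adjusted p = 0.31).

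Csf1r shares 873 exon bases with Hmgxb3, an HMG-box gene on the opposite strand, and whether reads were counted by strand is not given in the sources used here. Csf1r counts were 0.418 to 0.483 of the Hmgxb3 counts in 9 libraries and 1.83 times them in 24 h A, where Hmgxb3 had 786 counts. Reads from the shared exons of these genes cannot be told apart without strand. The closest pattern to Csf1r was that of Rab11a, a recycling endosome GTPase (r = 0.978). Without 24 h B, Csf1r passed over the 5 stages together with Cd74 and Lyz2 (3 of 8).

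Of the ligands of CSF1R, Csf1 was abundant, at 56.8 to 206.0 RPKM, and Il34 was lower, at 0.731 to 7.86 RPKM. Csf1 was called lower at confluence than in subconfluent cells (log2 fold change -1.37 ± 0.12, adjusted p = 0.0024) and higher at 21 d than at 14 d (1.15 ± 0.12, adjusted p = 0.0016). Il34 was called higher at 24 h and 14 d than at confluence (1.36 ± 0.18 and 2.66 ± 0.18, adjusted p = 0.0075 and 0.0001). It was also called higher at 21 d than in subconfluent cells (3.05 ± 0.18, adjusted p = 1.8e-05, ± SE, edgeR). Of all genes, 1.43% were called at confluence against subconfluent cells and 3.97% at 21 d against 14 d. The shares were 2.13% at 24 h and 13.0% at 14 d, both against confluence, and 27.6% at 21 d against subconfluent cells. Spi1 (PU.1), the factor that drives Csf1r in macrophages, had 51 counts in all libraries together, at most 0.085 RPKM, and Irf8 had 6. Spi1 was called higher at 14 d than at confluence (4.25 ± 1.24, edgeR adjusted p = 0.036). It was also called higher at 21 d than in subconfluent cells (4.72 ± 1.21, edgeR adjusted p = 0.014). With 0 to 17 counts per library, Spi1 passed the filter only through its higher libraries, so these calls are a description.

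Cd14 (ENSMUSG00000051439, chr18:36725067-36726798), a co-receptor for lipopolysaccharide, varied least of the 10 genes. It stood between 1.98 RPKM (24 h B) and 2.51 RPKM (14 d B), a ratio of 1.27 between highest and lowest, and the stages overlapped. Its log2 fold change at 21 d against subconfluent cells was 0.21, with a 95% interval of -0.24 to 0.65. Of 8 genes of the lipopolysaccharide receptor, 6 had a mean of 1 RPKM or more, among them Myd88 at 12.6 to 18.7, Tlr2 at 3.22 to 8.32, Ly96 (MD-2) at 1.4 to 3.21 and Tlr4 at 0.71 to 2.18 RPKM. At 21 d against subconfluent cells, where 27.6% of all genes were called, 1 of the 8 was called, Lbp, the lipopolysaccharide-binding protein of serum, which was higher by 4.38 ± 0.25 on the log2 scale (± SE, edgeR adjusted p = 1.4e-05).

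Cd68 (ENSMUSG00000018774, chr11:69664213-69666153), a lysosomal glycoprotein of macrophages, was read at 18 to 121 counts, or 0.464 to 0.936 RPKM. The 21 d libraries, 0.936 and 0.909 RPKM, were the highest, and the other stages overlapped in part. The log2 fold change at 21 d against subconfluent cells was 0.57, with a 95% interval of -0.22 to 1.36. It was 1.09 without subconfluent A and 0.17 without subconfluent B. Cd68 lies 783 bp from Eif4a1, a translation factor on the same strand with 14171 to 102933 counts, of which Cd68 counts were 6.29e-04 to 0.00292 times.

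Cd74 (ENSMUSG00000024610, chr18:60803848-60812652) was the gene of the 8 that was called. It stood at 1.03 and 0.605 RPKM in subconfluent cells, 1.65 and 1.91 RPKM at confluence, 2.67 and 1.87 RPKM at 24 h, 1.56 and 0.601 RPKM at 14 d, and 3.28 and 2.85 RPKM at 21 d, from 17 to 207 counts. Both 21 d libraries lie above all others, and 14 d B lies as low as subconfluent B. The log2 fold change at 21 d against subconfluent cells was 1.99 ± 0.47 (± SE, 95% interval 0.90 to 3.09, edgeR adjusted p = 0.0098), higher in 2 of 2 libraries. Without subconfluent B it was 1.65 and no longer called (adjusted p = 0.073).

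This Cd74 comparison crosses the sets of libraries, which are set apart here by index pair alone. Within them, Cd74 differed by 1.08 ± 0.46 between confluent and subconfluent cells (adjusted p = 0.29) and by 1.41 ± 0.46 between 21 d and 14 d (± SE, adjusted p = 0.11 by edgeR and 0.043 by DESeq2). At 24 h against confluence the difference was 0.45, with an interval of -0.60 to 1.49, and at 14 d against confluence -0.49, with an interval of -1.55 to 0.58. That last value was -1.34 without 14 d A and -0.00 without 14 d B, so it rests on which 14 d library is used. Between 21 d and 14 d the value ran from 0.82 to 2.25 under the alternatives described below. Cd74 shares 12 exon bases with the microRNA gene Mir5107, and Cd74 counts were 0.818 to 2.54 times those of Mir5107. Its closest patterns were those of Eml2 (r = 0.956) and Polb (r = 0.939).

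The classical MHC class II partners of CD74 were low, whereas the peptide-loading chains had reads at higher levels. H2-Aa, H2-Ab1 and H2-Eb1, the classical chains, had 10, 34 and 44 counts over the 10 libraries together, and Ciita, the factor that switches on this pathway, 81. H2-DMb1 and H2-DMb2, which load peptide, were at 45.1 to 77.5 and 15.2 to 34.6 RPKM, and their partner H2-DMa was at 1.52 to 3.54 RPKM. Of 9 MHC class II genes, 5 could be tested, and at 21 d against subconfluent cells edgeR called 0 (2 at an unadjusted p under 0.05), limma 0 and DESeq2 1, H2-Ab1. Mif, the ligand of CD74 as a receptor, was at 237.5 to 480.0 RPKM and Cd44, its signalling partner, at 51 to 77 RPKM, and neither was called there. The chemokine receptor Cxcr4, another partner, was called lower (-3.96 ± 0.72 on the log2 scale, ± SE, edgeR adjusted p = 0.003) from at most 0.411 RPKM.

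Laptm5 (ENSMUSG00000028581, chr4:130913125-130936141), a lysosomal protein of lymphocytes and macrophages, had 2 to 21 counts per library and at most 0.101 RPKM. Its lowest libraries were 21 d B (2 counts, 0.00662 RPKM) and 14 d B (2 counts). At 21 d against subconfluent cells the log2 fold change was -1.62, and its 95% interval of -3.53 to 0.28 was too wide to call a difference at this depth. That change was -2.54 without 21 d A and -0.83 without 21 d B. Lysosomal membrane genes found in all cells were high, with Cd63 at 622.8 to 1183.8, Laptm4a at 374.3 to 555.0 and Laptm4b at 8.04 to 21.3 RPKM, and 2 of 8 such genes, Laptm4b and Lamp2, were called higher at 21 d than in subconfluent cells, close to the 27.6% of all genes called there.

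**Figure D4:**
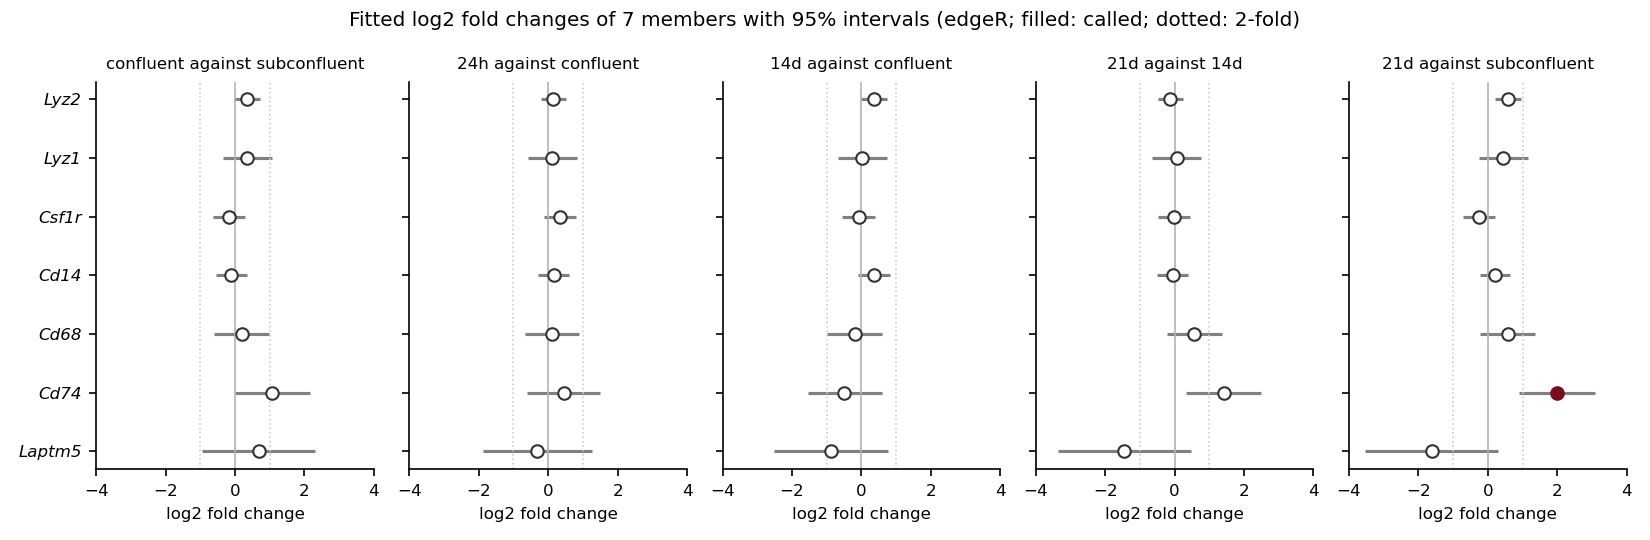
Fitted log2 fold change with its 95% interval (edgeR, all libraries in 1 fit) for 7 of the 8 tested genes in the 5 comparisons, with dotted lines at 2-fold and a filled point for a gene that was called. Hcst is left out because stages at 0 give no usable fold. The filled point is Cd74 at 21 d against subconfluent cells (1.99), and the intervals of Lyz2, Csf1r and Cd14 stay within 2-fold in all 5 panels.

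Several defining markers of blood cells were at or near 0, whereas Itgam, Itga2b, Fcer1g and Itgb2, given below, had reads at levels like those of the 10 genes. In these bulk samples, fewer cells of a type and less RNA per cell cannot be told apart. Ptprc (CD45), carried by nearly all leukocytes, had 0 counts in all 10 libraries, as had Cd3e, Hbb-bs, C1qb, C1qc, Cybb and S100a9. Adgre1 (F4/80) had 1 count in total, Acp5, the phosphatase of osteoclasts, had 8, and S100a8 had 14. Of 20 pan-leukocyte genes, 3 were at 0 in every library, 14 stayed below 0.1 RPKM in each and 0 reached a mean of 1 RPKM, and their summed level was 0.472 to 2.74 RPKM. Col1a1, the main collagen of bone, stood at 3788 to 10422 RPKM.

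Of 20 macrophage markers, 4 were at 0 in every library and 16 stayed below 0.1 RPKM, and their summed level was 5.4 to 12.7 RPKM, highest in 24 h A. That sum was nearly all Itgam (CD11b), at 5 to 9.86 RPKM, and Fcer1g, the common Fc receptor chain, at 0.305 to 2.56 RPKM. Fcer1g, Spi1 and Trem2 were called higher at 21 d than in subconfluent cells, 3 of the 4 tested, where 27.6% of all genes were called. Spi1 and Trem2 had 0 to 17 and 2 to 61 counts per library. They passed the filter on low counts only through their higher libraries, so their calls are a description. The osteoclast list summed to 84 to 190.1 RPKM through Ctsk, at 76.9 to 179.7 RPKM, with Mmp9 at 4.55 to 9.56 and Itgb3 at 1.92 to 6.32 RPKM, while Calcr and Dcstamp were at 0 and Oscar had 35 counts in total. Ctsk and Itgb3, 2 of the 3 tested, were called higher at 21 d than in subconfluent cells (log2 fold change 1.28 ± 0.11 and 1.35 ± 0.11, ± SE, edgeR adjusted p = 9.4e-05 and 6.7e-05).

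Of the lymphoid list, 5 of 15 T and NK cell genes were at 0 in every library and the sum was 0.507 to 2.59 RPKM, mostly Cd247, Zap70 and Il2rg, and B cell genes summed to at most 0.144 RPKM. Granulocyte, erythroid and mast cell genes summed to at most 1.08, 0.438 and 0.0483 RPKM, and endothelial genes to 0.107. Megakaryocyte genes summed to at most 3.39 RPKM, of which Itga2b made 1.83 to 3.18. Gp1ba of the megakaryocyte list (1 of 3 tested) and Tek of the endothelial list (1 of 2 tested) were called higher at 21 d than in subconfluent cells. Tek had 0 to 15 counts per library and passed the filter only through its higher libraries. The summed pan-leukocyte level was highest in both 21 d libraries (2.51 and 2.74 RPKM), where Itgb2, the leukocyte integrin β2 chain, reached 1.61 RPKM. Itgb2, Cd48 and Fermt3 were called higher at 21 d than in subconfluent cells. They were 3 of 9 tested genes of that list, near the 27.6% of all genes called. Itgb2 and Cd48 had 0 to 391 and 0 to 41 counts per library. These 2 genes passed the filter only through their higher libraries, so their calls are a description. The part of other cells in the levels of the 10 genes was not tested.

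**Figure D5:**
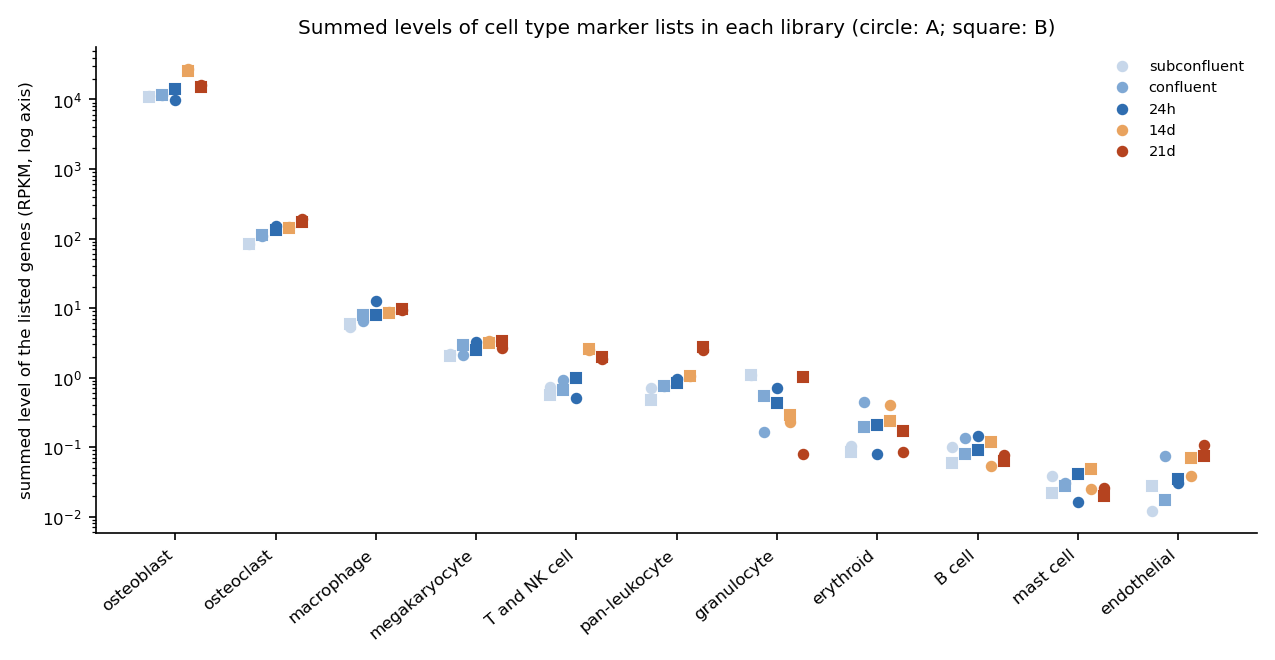
Summed level of each marker list (RPKM, log axis) in the 10 libraries, coloured by stage, with circles for replicate A and squares for B. Osteoblast markers stand at 9701 to 27361 RPKM, the macrophage list at 5.4 to 12.7 RPKM, and the pan-leukocyte, lymphoid, granulocyte and erythroid lists at or below 2.74 RPKM in each library.

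By level in RPKM, leaving out Tyrobp and Hcst, whose stage means describe neither library, the order in subconfluent cells was Lyz2, Lyz1, Csf1r, Cd14, Cd74, Cd68, Laptm5 and Sash3. Lyz1 overlapped Csf1r and Cd14 there, and Cd74 overlapped Cd68. At 21 d the order of the same 8 genes was Lyz2, Sash3, Lyz1, Cd74, Cd14, Csf1r, Cd68 and Laptm5. Lyz1 and Cd74 overlapped there, whereas both Sash3 values lay between those of Lyz2, at 14.8 ± 0.602 RPKM, and those of Lyz1, at 3.28 ± 0.439 RPKM (SD, n = 2).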

How the data were processed

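The study sequenced RNA of MC3T3-E1 cells at 5 stages with 2 replicates each. Per the submitters' processing notes, reads were aligned to mm10 with TopHat2 2.0.9, and FastQC and R 3.0.1 were used. The counting tool, its annotation and its strand setting are not given in the sources used here. The authors deposited counts per gene without normalization, and RPKM values, which the authors scaled for gene length and read number. Where a library had lane columns, the merged column was used.

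Identifiers were matched to GENCODE vM21 (GRCm38, the same build as mm10), and 39547 of 40620 had a symbol. Counts were filtered with filterByExpr (20808 genes kept), scaled by TMM and fitted in edgeR 4.0.16 (R 4.3.3) with its quasi-likelihood test, 5 groups, all 10 libraries, and Benjamini-Hochberg adjustment over all genes. Each standard error was taken from the fold change and its F statistic. Levels and ranks use RPKM, and likeness uses log2 CPM with a prior count of 2 among genes averaging 1 CPM or more. Intervals on Sash3 ratios are exact binomial intervals from scipy 1.17.1. Lyz1 and Lyz2 were aligned with Biopython 1.88. The fit was tested on simulated data with 200 changed genes (14 d against confluent, 20808 genes). At an adjusted p under 0.05 with no fold limit, 157 of them passed, among them 94 of the 94 changed 4-fold, and 8 unchanged genes. The calls in the text also need a change above 2-fold, so 157 does not measure them. The simulation set the same spread for all genes and libraries, unlike the 24 h libraries here.

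The text names the 10 members, up to 4 genes per list with fixed defining markers, and some of the called list genes. It also names the nearest genes to Sash3 and to Tyrobp and Hcst. The 2 genes most like each member are named too (for 4 members, both or 1 are given). Of the defining markers, 1 is not reported here. Other members of lists and other neighbours were named after their values were seen. The members and the gene lists were chosen with earlier results of these data known. Alternatives were DESeq2 1.42.0, limma 3.58.1 (limma-trend) on RPKM, other scalings and filters, lane sums, the replicate letter as a block, fewer stages and each library left out. Leaving out the 3 libraries of high Tyrobp was added after seeing the data.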

Additional observations from a re-analysis of the deposited data

How the results depend on the processing

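Of the 8 tested genes, 2 passed over the 5 stages (Lyz2 and Cd74), where 48.9% of all genes did. That count was 1 with DESeq2 size factors (48.7% of all genes passed), library size alone (49.1%) and no filter (32.7%). It was also 1 with the replicate block (41.7%) and limma on log2(RPKM + 1) (33.2%). Cd74 was the gene left in each of these settings. The shares over all genes thus fell in some of them. The count of members was 0 with limma on log2(RPKM + 0.1), at an adjusted p under 0.01 and without the 3 libraries of high Tyrobp, and 0 to 3 with each library left out. At 21 d against subconfluent cells the count of 1 became 2 by DESeq2 (with Hcst), 2 at any fold change (with Lyz2), 0 without the 3 libraries of high Tyrobp, and 0 to 1 with each library left out. DESeq2 gave 1 in place of 0 at confluent against subconfluent cells and 1 in place of 0 at 21 d against 14 d, and leaving out any library left 0 in these, at 24 h against confluence and at 14 d against confluence. Where that left 1 library in a stage, it was assumed to vary like the others. Of all genes, 33.1% passed over the 5 stages with limma on log2(RPKM + 0.1). At 21 d against subconfluent cells DESeq2 called 25.2% of all genes, and 50.7% passed in edgeR at any fold change. The causes were not tested.

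Cd74 at 21 d against subconfluent cells was called under 21 of 23 alternatives, with log2 fold changes of 1.17 to 2.43 and adjusted p of 0.00059 to 0.073, and Lyz2 kept its sign in 23 of 23 (0.43 to 0.71). At 14 d against confluence the Cd74 change of -0.49 turned to 0.11 without the 3 libraries of high Tyrobp. Over all 8 genes and 5 comparisons, 60 of 898 values under the alternatives changed sign, none of them of a called change. With CPM in place of RPKM, 28 of 50 ranks differed, 13 of them by more than the SD of the ranks in the 2 replicates. Called list genes changed sign in 0 of 171 values under 3 other scalings. Library size alone shifted the median over the whole table, on the log2 scale, to -0.20 at 14 d against confluence, -0.13 at 24 h against confluence and -0.12 at 21 d against subconfluent cells, and upper-quartile factors moved the last to 0.17. Limma on log2(RPKM + 1) called fewer genes of the table, 110 against 297 by edgeR at confluence, 157 against 443 at 24 h, 1313 against 2705 at 14 d, 515 against 826 at 21 d against 14 d and 3342 against 5740 at 21 d against subconfluent cells. DESeq2 called 464 at confluence and 686 at 24 h, and a fit of the 24 h and confluent libraries alone called 0. Single libraries also moved these counts: at confluence to 107 without subconfluent A, 145 without subconfluent B, 131 without confluent B, 483 without 24 h A and 485 without 24 h B, at 24 h to 141 without confluent A, 183 without confluent B, 290 without 14 d A, 291 without 14 d B and 2388 without 24 h B, at 21 d against 14 d to 544 without 21 d A, and over the 5 stages from 10173 to 15743 without 24 h B.

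The replicate letters did not pair the samples: A minus B correlated between stages at -0.184 to 0.1. With the replicate block, 1 gene passed over the 5 stages and 1 at 21 d against subconfluent cells. Depth limits Laptm5 (2 to 21 counts), Cd74 (17 to 207) and Cd68 (18 to 121), and 2 libraries per stage limit each comparison.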

Other observations

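Likeness of the remaining members to the 15106 genes compared over the 10 libraries is given as a description. The genes most like Tyrobp were Nphs1os and Nfkbid (r = 0.998 for both), and those most like Hcst were Tyrobp (r = 0.989) and Nphs1os (r = 0.988). Cd14 was most like Mff, a mitochondrial fission factor (r = 0.946), and Btf3l4 (r = 0.929), and Cd68 was most like Tchp (r = 0.901) and Snrnp48 (r = 0.889). Csf1r came next to Txndc17 (r = 0.969) after Rab11a. For Lyz1 (Gm25911 and Gm16092, r = 0.843 for both) and Laptm5 (Gm12057, r = 0.912, and Hspd1-ps4, r = 0.898) the closest entries of the table carry predicted-gene or pseudogene names. All values share libraries, depth and stage.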
